A study of Mus musculus with 15 samples.

Results

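Retinoic acid, the signalling form of vitamin A, was followed through 9 genes that take up its precursor, make it, bind it, break it down or respond to it. They were chosen by name as Aldh1a1, Aldh1a2, Aldh1a3, Crabp1, Crabp2, Cyp26a1, Cyp26b1, Rarb and Stra6, and all 9 were found among the 25292 genes counted in mouse embryonic pancreas. Gene expression had been measured by RNA sequencing of poly(A) RNA in 15 libraries, 3 for each of 5 groups. All mice are given as C57/Bl6J. Wild-type (wt) pancreata and pancreata labelled S1pr2 null were dissected at 14.5 days post coitum (dpc) and not cultured. The S1pr2 gene encodes a receptor of the lipid sphingosine-1-phosphate, and the null allele is a germline allele carried by every cell of the embryo. The other 3 groups were wt explants of 14.5 dpc, for which the study dissected dorsal buds, kept for 2 days on a filter at the air-liquid interface. They were left in standard medium (control), given 15 μM JTE013, an antagonist of S1pr2 (JTE), or given 15 μM JTE013 together with 50 ng/ml CTGF, a secreted matrix protein (JTE + CTGF). Each library came from pooled organs or explants, so the p-values below measure the spread between pools. RNA of whole tissue was sequenced, and fewer cells of a type and less RNA per cell cannot be told apart.

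The S1pr2 reads were not lower in the libraries labelled S1pr2 null. The libraries labelled S1pr2 null held 1458, 1263 and 1354 normalised reads of S1pr2, against 772, 762 and 762 in wt, which is 1.77-fold higher (adjusted p = 4.5e-07, edgeR). The allele was made by placing a neo cassette in exon 1, and counts per gene do not show which part of the transcript the reads cover, so they do not test whether the gene is disrupted. Directions drawn from these libraries rest on their label. Depth was even, at 11402804 to 13828737 counted reads a library. The third JTE library stood apart from the other JTE libraries: the chi-square per gene was 17.2 and 23.2 against them, and 3.01 between those, over a range of 2.34 to 10.2 in the other groups. For the 9 genes and the other retinoid genes named here, calls that change without it are given beside the result. This leaves out Rdh11, Rdh14 and the JTE changes of Dhrs4 and Adh5.

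Retinoic acid acts within a short range because it is made and destroyed locally. Retinol carried in plasma enters cells through Stra6, the membrane receptor of the retinol-binding protein, and is oxidised to retinaldehyde and then, irreversibly, to retinoic acid by the Aldh1a dehydrogenases. Crabp1 and Crabp2 bind the product in the cytosol, Cyp26 enzymes hydroxylate and clear it, and nuclear receptors such as Rarb switch genes in its presence. In the embryonic pancreas Aldh1a2 of the mesenchyme and mesothelium is the known early source, and the signal is needed for the dorsal bud to form.

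Several of these genes are themselves textbook targets of retinoic acid. Their receptors bind direct repeats of a hexamer, classically with a spacer of 5 bases, and the Rarb and Cyp26a1 promoters carry well-known examples. The RefSeq promoter windows (GRCm38.p6, the same assembly as mm10; 250 bases before to 50 after each start) held 11 windows for 7 of the 9 genes. Aldh1a3 and Crabp2 had no entry. The repeat searched was the hexamer AGGTCA, its variant AGTTCA, the variant GGGTCA or the variant GGTTCA, followed, after any 5 bases, by any of these again in the same direction, on both strands. It occurred in 32 of 32851 promoter windows (0.0974%), and among the 9 genes in the windows of Rarb and Cyp26a1. The Rarb repeat lay 53 to 37 bases before the start on the strand of the gene, and the Cyp26a1 repeat 32 to 16 bases before the start on the opposite strand, where it reads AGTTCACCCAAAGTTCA. The same repeat with a spacer of 1 or 2 bases, present in 0.222% and 0.268% of all windows, was found in none of the 11. A window without a match says only that these letters are not in it. The 250 bases before each start are shown 5′ to 3′ on the strand of the gene with the repeat in capitals, because the gene with the first sequence was called in explants and the gene with the second was almost silent. The Rarb stretch is chr14:16575477-16575726 (minus strand) and the Cyp26a1 stretch chr19:37697558-37697807 (plus strand).
Rarb: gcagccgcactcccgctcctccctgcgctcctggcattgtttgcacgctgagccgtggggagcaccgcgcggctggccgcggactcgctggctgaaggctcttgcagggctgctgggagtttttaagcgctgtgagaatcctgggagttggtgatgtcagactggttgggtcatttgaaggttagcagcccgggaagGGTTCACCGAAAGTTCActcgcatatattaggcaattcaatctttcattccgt
Cyp26a1: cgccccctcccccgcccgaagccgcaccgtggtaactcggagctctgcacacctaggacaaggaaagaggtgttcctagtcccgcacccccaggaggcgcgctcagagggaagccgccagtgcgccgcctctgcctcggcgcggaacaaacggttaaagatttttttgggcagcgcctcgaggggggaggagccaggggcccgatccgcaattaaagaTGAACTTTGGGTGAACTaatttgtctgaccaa

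Levels are given as normalised reads, read counts scaled to a common effective library size, and genes were compared with each other only per kilobase of exon. Of the 9 genes, 8 passed the filter on low counts, and Cyp26a1, with 0 to 5 reads in every library, did not. A gene was called at an adjusted p below 0.05 in the quasi-likelihood test of edgeR, adjusted over 16245 genes, and changes are log2 fold changes ± SE.

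In pancreata labelled S1pr2 null the uptake receptor Stra6, the clearing enzyme Cyp26b1 and both binding proteins rose, while the dehydrogenases Aldh1a1 and Aldh1a2 fell. That is 6 of the 8 tested genes called, where 25.8% of all tested genes were called: 4 were higher, against 12.6% of all genes, and 2 lower, against 13.3%. Their median change was 0.30, against -0.012 over all tested genes. In JTE explants Aldh1a1, Aldh1a2, Crabp1 and Stra6 fell and Cyp26b1 and Rarb rose, which is 6 of 8 called where 52.2% of all genes were, with 4 lower against 26.2% and 2 higher against 25.9%. The median change was -0.43 for the 8 genes and 0 for all genes. With JTE + CTGF, 6 of 8 were called against control where 61.1% of all genes were. Aldh1a1, Aldh1a2, Crabp1 and Stra6 were lower, against 33% of all genes, and Crabp2 and Rarb higher, against 28.1%, with a median of -0.88 against -0.032 over all genes. Set directly against JTE, JTE + CTGF explants had lower Stra6, Crabp1, Aldh1a2 and Cyp26b1, 4 of 8 called where 30.4% of all genes were, all 4 lower against 16.8% (and 13.6% higher), with a median of -0.37 against -0.0022. Between control explants and fresh wt pancreata, Aldh1a1 was higher and 6 genes were lower in the explants, 7 of 8 called where 57.8% of all genes were (28.5% higher and 29.3% lower), with a median of -0.79 against -0.023. In the comparisons with control explants a call by itself sets no gene apart against such shares. By the stricter criterion of regulation of the study, which asks for a fold change and a minimum level as well, 4 of the 8 passed in null (3.2% of all genes), 2 with JTE (8.55%), 3 with JTE + CTGF (12.5%) and 5 between control and wt (12.8%), and it was met by 1.98% of all genes between JTE + CTGF and JTE. JTE and JTE + CTGF were set against the same control libraries, control explants serve in 3 comparisons and wt in 2, so the comparisons are not independent.

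**Figure D1:**
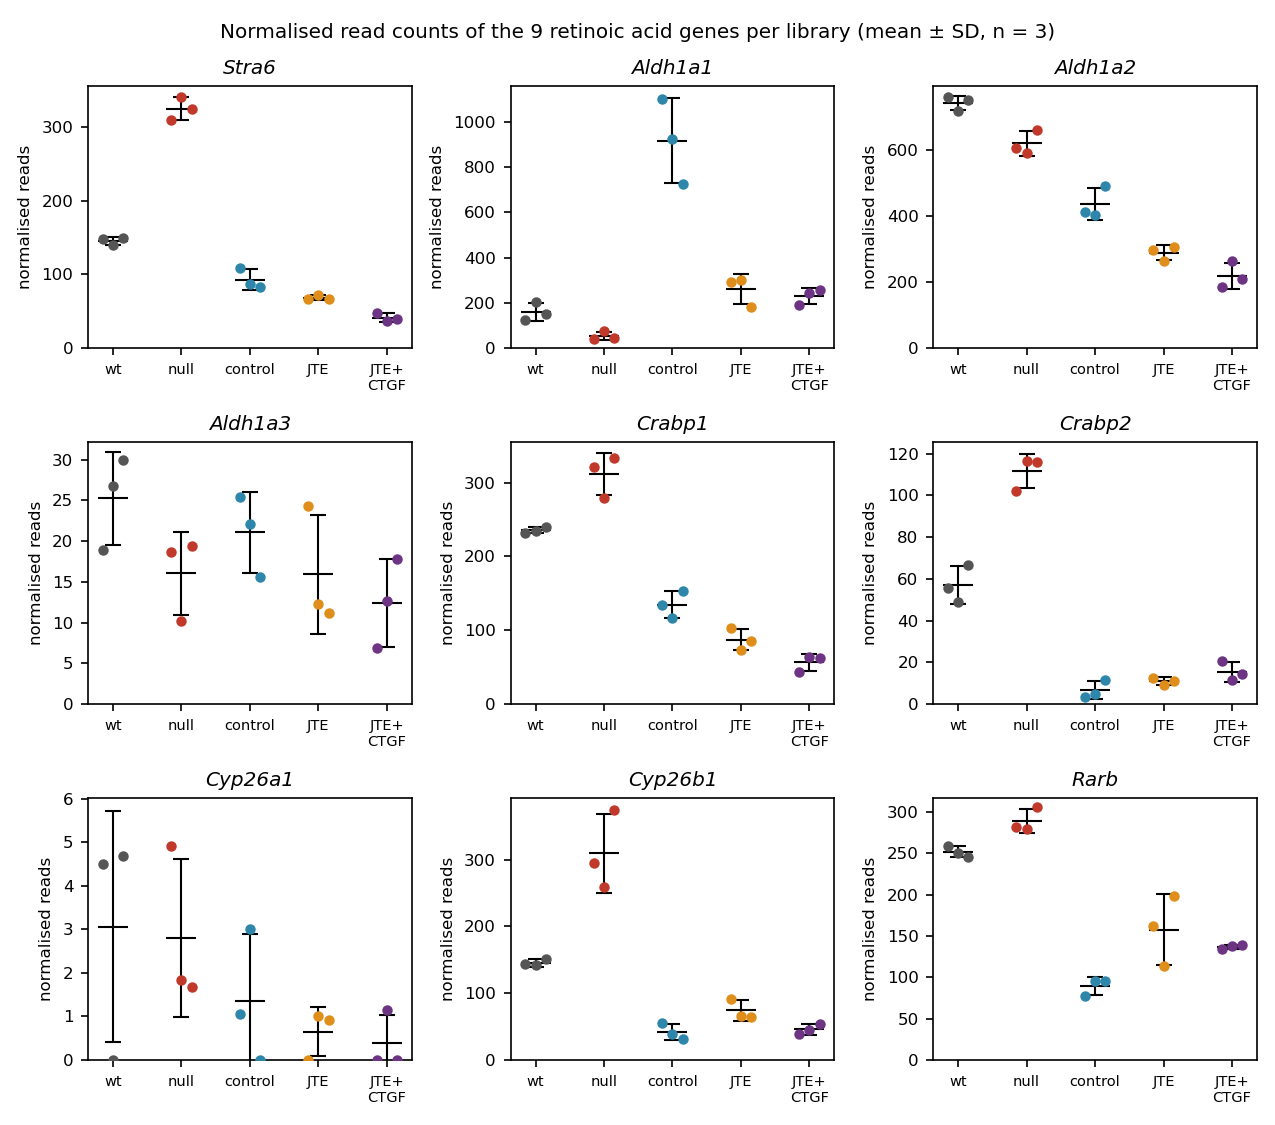
Normalised read counts (vertical axes, from 0, a scale per gene) of the 9 genes in the 3 libraries of each group (points), with mean and SD (bars); null marks the libraries labelled S1pr2 null. Stra6 and Crabp1 step down from null to JTE + CTGF with no overlap between neighbouring groups, Aldh1a1 peaks in control explants, and Cyp26a1 stays at or below 5 reads.

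Stra6 (chr9:58063788-58153996 in mm10, plus strand) held 148, 139.8 and 149 normalised reads in wt and 310.1, 341 and 325 in libraries labelled S1pr2 null. The groups were well apart, and the change was 1.16 ± 0.10 (2.23-fold higher, adjusted p = 8.49e-07, edgeR). Control explants held 109, 86.5 and 83.3, JTE explants 66.7, 72.5 and 66.0, and JTE + CTGF explants 48.0, 36.6 and 39.1. Each of these groups lay wholly below the one before it. The fall was -0.44 ± 0.13 with JTE (adjusted p = 0.0082) and -1.17 ± 0.14 with JTE + CTGF (adjusted p = 2.36e-06) against control, and -0.73 ± 0.15 between them (adjusted p = 0.00146). Without the first control library the JTE change was -0.31 and was not called (adjusted p = 0.0757). Control explants were below fresh wt by -0.65 ± 0.12 (adjusted p = 0.00015). From the highest group to the lowest the order was null, wt, control, JTE and JTE + CTGF, with no overlap between neighbours.

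The Aldh1a enzymes carry out the last, irreversible step. Aldh1a1 (chr19:20601961-20643462, plus strand; 3.06% of its 50-base words are shared with Aldh1a7, where reads would not be counted) held 125, 205 and 148 normalised reads in wt and 38.3, 73.9 and 46.3 in the libraries labelled S1pr2 null. The groups did not overlap, and the fall was -1.59 ± 0.28 (3.00-fold, adjusted p = 0.000537). Control explants held 1101, 926 and 726 reads, the highest of any group, JTE explants 293, 302 and 183, and JTE + CTGF explants 189.8, 242 and 256. Both treated groups lay far below every control library and overlapped each other. Aldh1a1 fell by 1.83 ± 0.20 with JTE (3.55-fold lower, adjusted p = 9.33e-07) and by 2.00 ± 0.20 with JTE + CTGF (4.01-fold lower, adjusted p = 2.79e-07), and the difference between the treated groups, -0.17 ± 0.22, was not called (adjusted p = 0.597). Without the third JTE library, the lowest of its group, the JTE change was -1.62 (adjusted p = 1.52e-06). Control explants exceeded fresh wt 5.77-fold (2.53 ± 0.21, adjusted p = 2.25e-08). In order, control stood highest, JTE, JTE + CTGF and wt followed with each overlapping its neighbour, and null was lowest with no overlap.

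Aldh1a2 (chr9:71215789-71296243, plus strand), the main enzyme of early embryos, held 758, 718 and 751 normalised reads in wt and 606, 590.0 and 660.4 in libraries labelled S1pr2 null. The small fall of -0.26 ± 0.09 (adjusted p = 0.0455) was not called by DESeq2 (adjusted p = 0.0536), nor without any of 7 libraries: any wt library, the first or second null library, the first JTE or the third JTE + CTGF library (adjusted p from 0.0526 to 0.155). In explants the fall was steadier. Control held 411, 403 and 492 reads, JTE 296, 262 and 307, and JTE + CTGF 184, 262 and 208. The change was -0.59 ± 0.10 with JTE (adjusted p = 0.000146) and -0.99 ± 0.11 with JTE + CTGF (adjusted p = 7.18e-07) against control. Between the treated groups it was -0.40 ± 0.11 (adjusted p = 0.0127), where the lowest JTE library and the highest JTE + CTGF library nearly met. That call was lost without the first (adjusted p = 0.0681) or the third JTE + CTGF library (0.0561) or the third JTE library (0.0702), and in a fit of only the 6 libraries compared (0.0589). Control explants were below wt by -0.77 ± 0.10 (adjusted p = 2.91e-06). The order was wt, null, control, JTE and JTE + CTGF, and no neighbouring groups overlapped.

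Aldh1a3 (chr7:66390892-66427517, minus strand), the third dehydrogenase, was scarce, with 6 to 32 reads per library. Group means were 25.2 ± 5.73 normalised reads in wt, 16.1 ± 5.12 in null, 21.1 ± 5.01 in control, 15.9 ± 7.31 in JTE and 12.4 ± 5.46 in JTE + CTGF (SD, n = 3), and all neighbouring groups overlapped when ordered by mean. Its changes were -0.64 ± 0.34 in null (adjusted p = 0.181), -0.42 ± 0.36 with JTE (0.353) and -0.76 ± 0.39 with JTE + CTGF (0.099). None was called, except that the last passed without the third JTE + CTGF library (-1.10, adjusted p = 0.049).

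Per kilobase of exon the make-up of the family turned over between fresh and cultured tissue. In wt, Aldh1a2 gave 79.9% ± 4.43 and Aldh1a1 18.8% ± 4.31 of the summed Aldh1a reads per kilobase (SD, n = 3). In libraries labelled S1pr2 null Aldh1a2 gave 90.3% ± 2.72. In control explants Aldh1a1 led with 69% ± 6.56, between 61.6% and 74.1% per library, and Aldh1a2 gave 30.3% ± 6.65. With JTE the shares were 48.6% ± 8.36 for Aldh1a1 and 50.1% ± 8.47 for Aldh1a2, and with JTE + CTGF 53.0% ± 3.35 and 45.7% ± 3.69. Aldh1a3 stayed between 0.59% and 1.89% in every library. The summed level was 411 ± 11.6 normalised reads per kilobase in wt and 303 ± 14.3 in null, 644 ± 75.1 in control, 257 ± 26.8 in JTE and 211 ± 31.7 in JTE + CTGF. The 3 control libraries, at 574 to 723, lay above all other libraries, and the JTE libraries, at 227 to 279, overlapped those of JTE + CTGF, at 175 to 236.

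**Figure D2:**
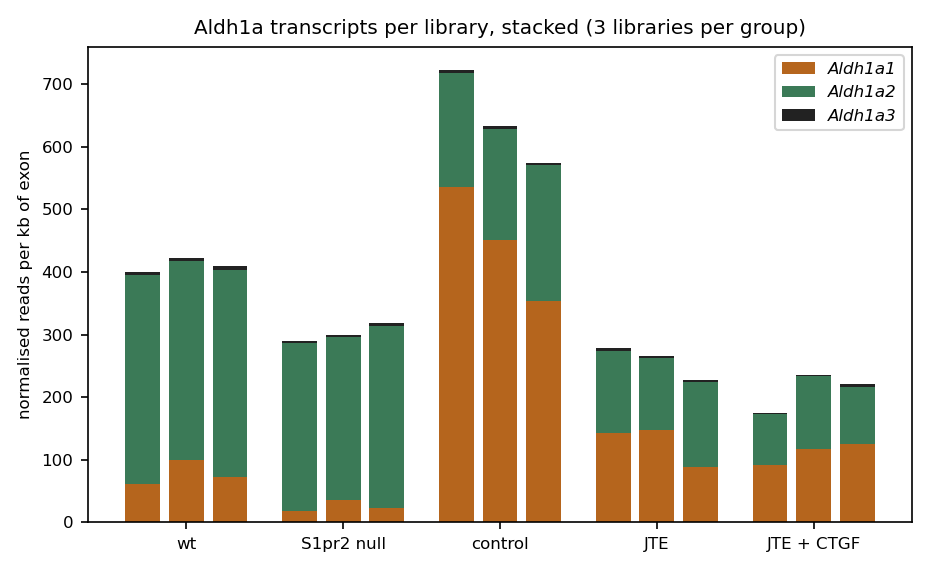
Normalised reads per kilobase of exon of Aldh1a1, Aldh1a2 and Aldh1a3, stacked for each of the 15 libraries, 3 per group from left to right. Aldh1a2 makes up most of each bar in fresh tissue, Aldh1a1 61.6% to 74.1% in control explants, and the bars of both treated groups are the shortest.

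The cellular binding proteins followed different courses. Crabp1 (chr9:54764748-54773110, plus strand), which is thought to hold retinoic acid for breakdown, had 232, 235 and 240.2 normalised reads in wt and 322, 279.8 and 334 in libraries labelled S1pr2 null. It rose by 0.40 ± 0.12 (adjusted p = 0.0196), with no overlap, but the call was lost without any of 5 libraries: any wt library and the first or the third null library (adjusted p from 0.0523 to 0.0911). Control explants had 134, 117 and 153 reads, JTE explants 103, 73.5 and 85.6, and JTE + CTGF explants 43.4, 64.1 and 62.8. Each group lay below the one before. The fall against control was -0.62 ± 0.15 with JTE (adjusted p = 0.00178) and -1.24 ± 0.16 with JTE + CTGF (adjusted p = 4.24e-06). Between the treated groups it was -0.62 ± 0.17 (adjusted p = 0.0107), which was lost without the first JTE + CTGF (0.057) or the first JTE library (0.0552), or in a fit of those 6 libraries alone (0.0547). Control explants were below wt by -0.81 ± 0.13 (adjusted p = 5.05e-05). The order of the 5 groups was that of Stra6.

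Crabp2 (chr3:87948666-87953376, plus strand), which hands retinoic acid to its nuclear receptor, had 55.8, 48.8 and 66.6 normalised reads in wt and 102, 116 and 116 in libraries labelled S1pr2 null. It rose 1.95-fold with no overlap (0.96 ± 0.19, adjusted p = 0.00152). In explants it was close to the limit of detection, with 3 to 18 reads per library. Control explants had 3.19, 5.03 and 11.5 normalised reads, JTE explants 12.7, 9.19 and 11.2, and JTE + CTGF explants 20.6, 11.5 and 14.2. The JTE change of 0.74 ± 0.40 was not called (adjusted p = 0.132), but passed without the third control library (1.39, adjusted p = 0.0171). The JTE + CTGF change of 1.22 ± 0.38 was called (adjusted p = 0.0108), and was lost without the first control (0.90, adjusted p = 0.0577) or the first JTE + CTGF library (0.95, adjusted p = 0.0665). The gap to fresh tissue was far larger than these differences, at -3.10 ± 0.30 for control against wt (8.56-fold lower, adjusted p = 1.64e-07). Null stood highest, then wt, and the 3 explant groups followed with JTE overlapping both of the others.

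Breakdown rests on the Cyp26 enzymes. Cyp26b1 (chr6:84571414-84593908, minus strand) had 143, 142 and 152 normalised reads in wt and 295, 259 and 375 in libraries labelled S1pr2 null, a rise of 1.09 ± 0.16 (2.13-fold, adjusted p = 0.000113) with no overlap. Control explants had 55.2, 39.2 and 31.2 reads, JTE explants 92.0, 66.4 and 64.2, and JTE + CTGF explants 38.9, 44.7 and 54.5. JTE explants stood above both of the other groups, which overlapped. The rise with JTE was 0.82 ± 0.22 (1.77-fold, adjusted p = 0.00462), while with JTE + CTGF the change against control was 0.14 ± 0.24 (adjusted p = 0.645). The fall from JTE to JTE + CTGF, -0.68 ± 0.22 (adjusted p = 0.0261), was lost without the first (0.0954) or second JTE + CTGF library (0.0695) or the first JTE library (0.123). Control explants were below wt by -1.80 ± 0.20 (3.48-fold, adjusted p = 8.98e-07). The order was null, wt, JTE, JTE + CTGF and control, and only the last pair of neighbours overlapped.

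Cyp26a1 (chr19:37697808-37701528, plus strand), the other enzyme of this kind and the gene whose proximal repeat is shown above, was hardly detected. It had 5, 0 and 5 reads in wt, 5, 2 and 2 in libraries labelled S1pr2 null, 1, 3 and 0 in control, 0, 1 and 1 in JTE and 0, 1 and 0 in JTE + CTGF. A count of 0 allows up to 3 reads in a library, counting error only, so differences between groups were not detectable at this depth. With no filter on low counts its adjusted p was between 0.436 and 0.993 in all 6 contrasts.

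Rarb (chr14:16430842-16575472, minus strand), a receptor that is itself induced by its ligand through the repeat shown above, had 259, 249.99 and 246 normalised reads in wt and 282, 279.8 and 305 in libraries labelled S1pr2 null. The groups did not overlap, but the difference of 0.20 ± 0.13 was not called (adjusted p = 0.277). Control explants had 77.5, 95.5 and 95.8 reads, JTE explants 162, 113 and 198, and JTE + CTGF explants 134, 137 and 139. Every treated library was above every control library. Rarb rose by 0.82 ± 0.15 with JTE (1.76-fold, adjusted p = 0.000291) and by 0.61 ± 0.16 with JTE + CTGF (1.52-fold, adjusted p = 0.00352). Without the third JTE library, the highest of its group, the JTE change was 0.61 (adjusted p = 0.00163). The treated groups differed by -0.21 ± 0.15 (adjusted p = 0.305), a value that was called without the second JTE library (-0.40, adjusted p = 0.0177) and turned to 0.028 without the third. Control explants were below wt by -1.49 ± 0.15 (2.80-fold, adjusted p = 2.24e-07). The order was null, wt, JTE, JTE + CTGF and control, with overlap only between the treated groups.

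**Figure D3:**
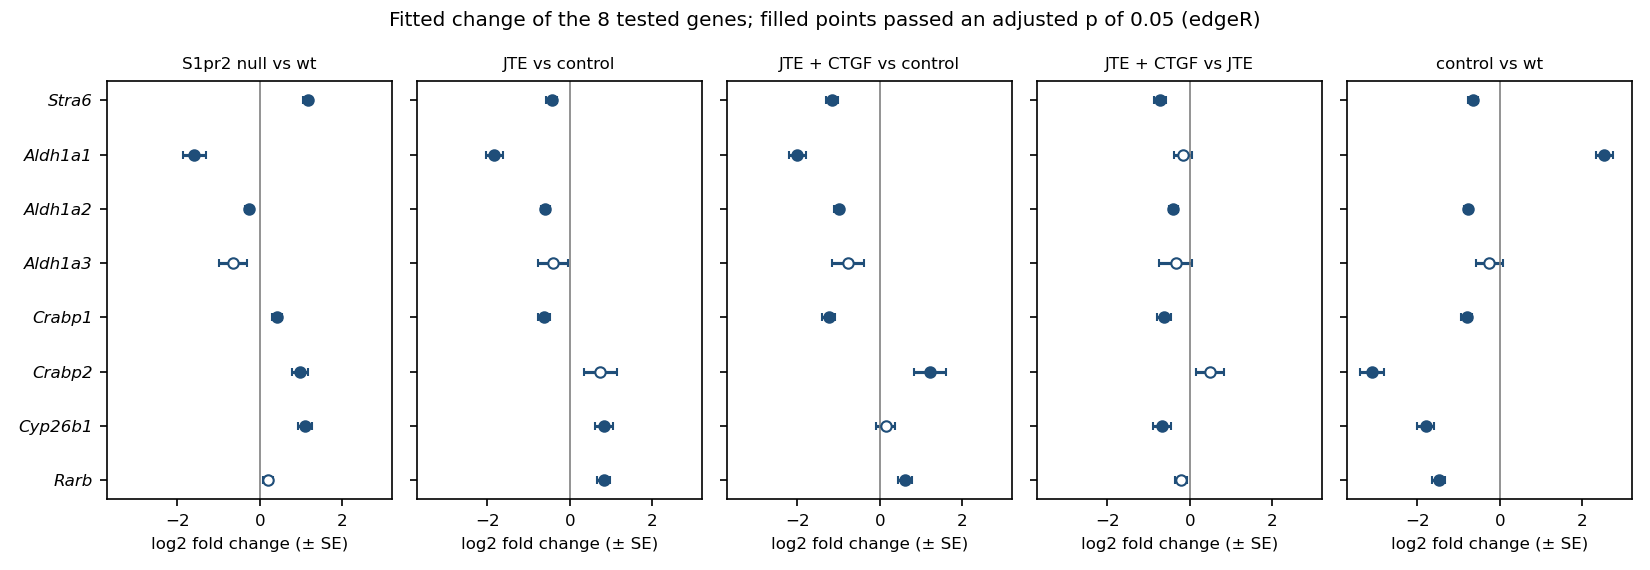
Log2 fold change ± SE (horizontal axes) of the 8 tested genes in 5 comparisons, from 3 libraries per group. Filled points passed an adjusted p of 0.05, open points did not. Aldh1a1 lies left of 0 in the null, JTE and JTE + CTGF panels and far to the right, at 2.53, for control against wt, where Crabp2 lies at -3.10.

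The genotype label and the antagonist both address S1pr2 and share no library, so their responses were compared by the interaction, the JTE response minus the response in libraries labelled S1pr2 null. It was called for 3 of the 8 genes, where 42.9% of all tested genes were called, 21.5% in each direction. For Stra6 it was -1.60 ± 0.17 (adjusted p = 1.28e-06), since the gene rose in the null libraries and fell with JTE. For Crabp1 it was -1.03 ± 0.19 (adjusted p = 0.000364), with the same pair of directions. For Rarb it was 0.62 ± 0.20 (adjusted p = 0.02), and that call was lost without the first control library (0.53, adjusted p = 0.057) or the third JTE library (0.42, adjusted p = 0.061). Aldh1a2 gave -0.33 ± 0.14 and was not called (adjusted p = 0.0645). It was called with RLE size factors (0.0497), in a fit of the 12 libraries compared (0.0314), and without the second control, the third JTE or the first or second JTE + CTGF library (0.0329 to 0.0479). The interaction was not called for Aldh1a1 (-0.24 ± 0.35, adjusted p = 0.611) or Cyp26b1 (-0.27 ± 0.27, adjusted p = 0.449), each called in the same direction in both comparisons, nor for Crabp2 (-0.23 ± 0.47) or Aldh1a3 (0.23 ± 0.50). Fresh organs and cultured dorsal buds differ in age, dissection and medium, and these cannot be told apart.

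**Figure D4:**
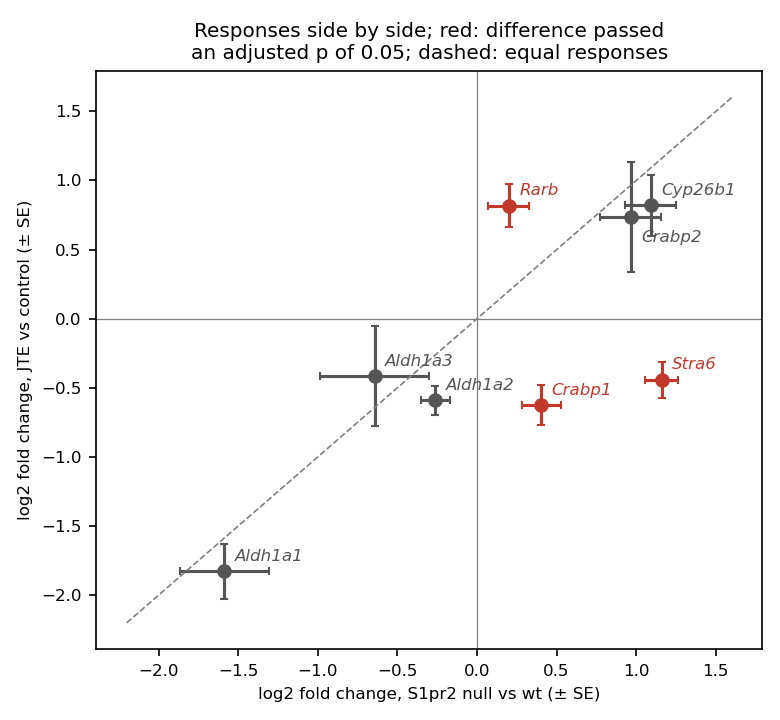
Log2 fold change ± SE of the 8 tested genes in libraries labelled S1pr2 null against wt (horizontal) and in JTE against control explants (vertical). Red genes have an interaction called at an adjusted p of 0.05; Stra6 and Crabp1 lie in the lower right quadrant, and Aldh1a1 lies near the dashed line of equal response.

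Of 40 other genes of retinoid transport, storage, oxidation and response, 30 passed the filter. In libraries labelled S1pr2 null 8 of them were higher and 7 lower, with JTE 8 and 11, with JTE + CTGF 6 and 14, between JTE + CTGF and JTE 4 higher and no other called, and between control and wt 11 and 9. The shares of all genes called are those given above. The 10 that were not tested were Rdh16, Adh4, Adh7, Rbp3, Rbp7, Bco2, Rpe65, Cyp26c1, Stra8 and Hoxb1.

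The first, reversible oxidation of retinol is done mainly by Rdh10. It had a mean of 603 ± 47.7 normalised reads in wt and 1252 ± 92.3 in libraries labelled S1pr2 null (1.05 ± 0.07, adjusted p = 5.24e-08), and fell with JTE from 316 ± 24.8 to 215 ± 17.8 (-0.55 ± 0.09, adjusted p = 7.18e-05). From wt to control it fell by 0.93 ± 0.08 (adjusted p = 4.32e-08). Its interaction of -1.61 ± 0.12 (adjusted p = 2.53e-08) was close in size to that of Stra6. Dhrs3, which runs the step backwards, fell in the null libraries (-0.33 ± 0.10, adjusted p = 0.0204), was not called with JTE (-0.05 ± 0.09, adjusted p = 0.698) and rose with JTE + CTGF (0.27 ± 0.09, adjusted p = 0.0189). The null call of Dhrs3 was lost without the first or second null or the second or the third wt library (adjusted p from 0.0571 to 0.0939), and the JTE + CTGF call without the third control (0.118) or the third JTE + CTGF library (0.0781). Lrat, which stores retinol as esters, had very few reads, so the size of its changes is uncertain. It fell from 7, 5 and 9 reads in wt to 1, 3 and 2 in null (adjusted p = 0.0305, lost without the first or the third library of either group, from 0.056 to 0.114), and rose from 1, 5 and 1 in control to 26, 24 and 20 with JTE (3.21 ± 0.45, adjusted p = 1.4e-05) and 9, 13 and 16 with JTE + CTGF (adjusted p = 0.000277). Bco1, which cleaves carotene to retinaldehyde, fell with JTE from 84.5 ± 8.04 to 9.29 ± 3.99 (-3.16 ± 0.25, adjusted p = 2.8e-08).

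In transport, Rbp4, the plasma carrier that Stra6 recognises, fell in null (-0.90 ± 0.07, adjusted p = 2.11e-07) and with JTE (-0.36 ± 0.07, adjusted p = 0.000319). Ttr, which holds Rbp4 in plasma, fell by 0.77 ± 0.13 and 1.13 ± 0.13 in the same comparisons (adjusted p = 0.00035 and 1.94e-06). The intestinal retinol binder Rbp2 fell in null (-1.40 ± 0.28, adjusted p = 0.00131), with JTE (-1.47 ± 0.43, adjusted p = 0.00818) and from wt to control (-1.69 ± 0.29, adjusted p = 9.55e-05). It had only 12, 14 and 12 reads in control and 2, 4 and 8 with JTE, so the size of the JTE fall is uncertain. Stra6l, a second receptor of the carrier, was 1.01 ± 0.22 higher in control than in wt (adjusted p = 0.000667), opposite to Stra6.

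Among the nuclear receptors Rara, Rarg, Rxra and Rxrb changed little, with log2 changes between -0.22 and 0.23 in these 5 comparisons. In null the rises of Rara (0.23 ± 0.06, adjusted p = 0.00991), Rarg (0.20 ± 0.06, adjusted p = 0.0248) and Rxra (0.21 ± 0.06, adjusted p = 0.0115) were called. That of Rarg was lost without the first or second wt or the second or the third null library (adjusted p from 0.0706 to 0.0874), and that of Rxra without the second wt library (0.0617). Rxrg rose in null (0.54 ± 0.17, adjusted p = 0.0264), a call lost without the second or the third wt or the first or second null library (adjusted p from 0.073 to 0.116). It fell with JTE (-1.41 ± 0.30, adjusted p = 0.000874) and fell from 112 ± 14.7 normalised reads in wt to 29.5 ± 9.03 in control (-1.92 ± 0.21, adjusted p = 6.82e-07). Its interaction was -1.95 ± 0.35 (adjusted p = 0.000266). Rarres2, a gene named for its response to retinoids, fell with JTE (-1.44 ± 0.14, adjusted p = 3.82e-07). Rarres1 was higher in control than in wt (1.75 ± 0.38, adjusted p = 0.000744), from few reads, 10, 9 and 11 in wt and 19, 31 and 42 in control.

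Between fresh wt and control explants the oxidising enzymes of the list went in both directions. Beside the fall of Rdh10 given above, Dhrs4 (-0.41 ± 0.08, adjusted p = 0.000493) and Adh5 (-0.25 ± 0.06, adjusted p = 0.00123) fell. Cyp1b1, in contrast, had 13.4 ± 0.90 normalised reads in wt and 283 ± 43.4 in control (4.39 ± 0.33, adjusted p = 6.83e-09), Dhrs9 rose from 1, 3 and 0 reads to 19, 25 and 21 (adjusted p = 5.18e-06, with wt too low for a fold), and Adh1 rose from 20.2 ± 3.45 to 94.3 ± 19.6 (2.22 ± 0.28, adjusted p = 3.1e-06). None of these 3 was called in null. Smaller rises from wt to control were called for Rdh11 (0.73 ± 0.06, adjusted p = 2.79e-08) and Rdh14 (0.25 ± 0.09, adjusted p = 0.0239). With JTE, Dhrs4 fell (-0.89 ± 0.09, adjusted p = 4.04e-07). Adh5 (0.33 ± 0.06, adjusted p = 0.000144), Rdh11 (0.27 ± 0.06, adjusted p = 0.000991) and Rdh14 (0.27 ± 0.09, adjusted p = 0.0157) rose with it. For these JTE changes no library was left out. Adh1 (-0.43 ± 0.23, adjusted p = 0.132) and Dhrs9 (-0.82 ± 0.34, adjusted p = 0.0554) were not called with JTE, although Dhrs9 passed without the second or the third wt or the second null library (adjusted p from 0.0436 to 0.0466). Cyp1b1 had 275, 243 and 329 normalised reads in control and 343, 307 and 593 with JTE. The groups overlapped, and the call (0.56 ± 0.20, adjusted p = 0.0284) rested on the third JTE library: without it the change was 0.20 (adjusted p = 0.291). It was also lost without the first (0.0663) or second control library (0.106).

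**Figure D5:**
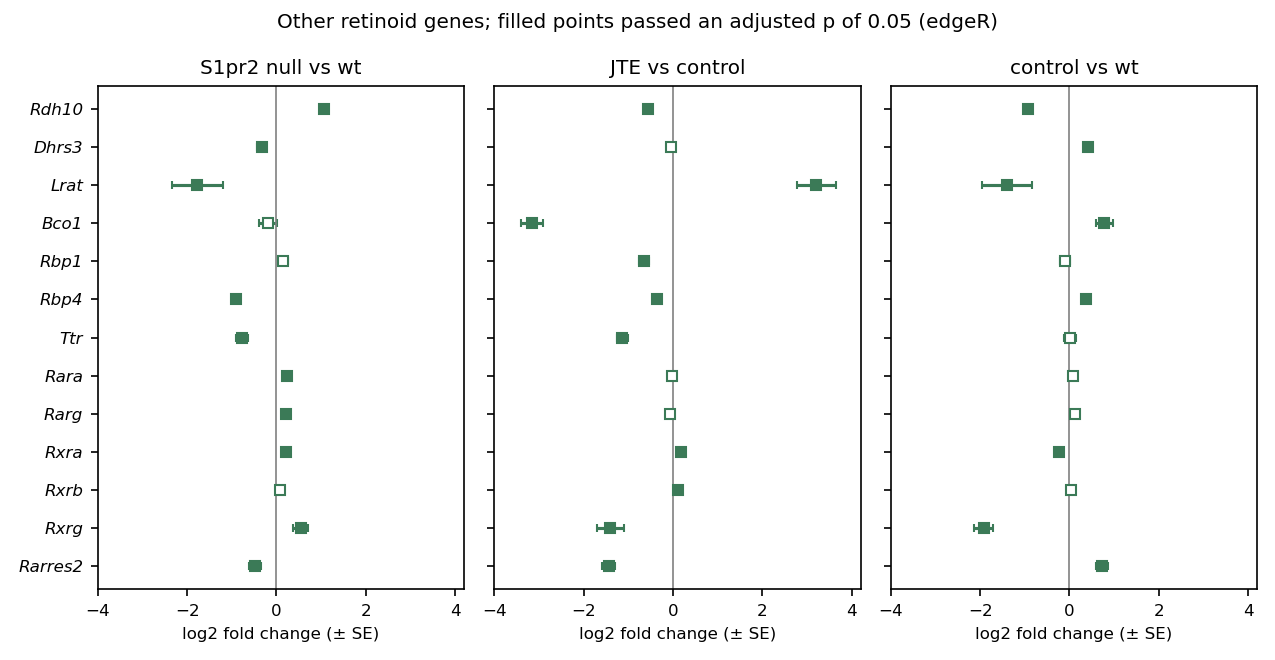
Log2 fold change ± SE (horizontal axes) of other retinoid genes in 3 comparisons with 3 libraries per group; filled squares passed an adjusted p of 0.05. Rdh10 and Rxrg lie right of 0 in the null panel and left of it in the others, while Lrat and Bco1 show the widest changes with JTE, at 3.21 and -3.16.

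Marker genes of the cell types that a pancreas dissection can hold differed between the groups as well. Their counts stand against the shares of all genes called, 25.8% in null, 52.2% with JTE, 61.1% with JTE + CTGF, 30.4% between JTE + CTGF and JTE and 57.8% between control and wt. Epithelial markers of the pancreas were present in every group. Cpa1, an acinar enzyme, is given apart from the others for its high level, with 21830 to 32570 normalised reads in wt, 9836 to 10680 in null, 73880 to 100900 in control, 77470 to 155400 in JTE and 129800 to 149700 in JTE + CTGF. The other 8, among them Pdx1, summed to 24630 to 27670 in wt, 18490 to 19480 in null, 33720 to 38640 in control, 23690 to 29960 in JTE and 26520 to 28860 in JTE + CTGF. In libraries labelled S1pr2 null 7 of the 9 fell. Both markers of the spleen primordium, Tlx1 and Nkx2-5, rose there, with a sum of 332 to 636 against 171 to 217 in wt, and of 7 general mesenchyme markers 4 rose and 2 fell. Mesothelial markers, Wt1, Upk3b and 3 others, were not called in null (sums of 2187 to 2356 against 2154 to 2215).

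In explants 4 of the 5 mesothelial markers fell with JTE and with JTE + CTGF, the exception being Wt1, and the sums were 657 to 968 in control, 342 to 605 in JTE and 321 to 480 in JTE + CTGF. All 4 leukocyte markers fell with JTE and JTE + CTGF, from a sum of 1787 to 2067 to 633 to 731 and 608 to 747. Of 5 endothelial markers 4 fell in both (sums of 5697 to 6902 in control, 4272 to 4803 in JTE and 3970 to 4689 in JTE + CTGF). The exception, Emcn, was not called with JTE (0.03 ± 0.12, adjusted p = 0.879) and rose with JTE + CTGF (0.40 ± 0.12, adjusted p = 0.00938). Of the epithelial markers 5 fell, Pdx1 and the keratins among them, and 1 rose with JTE. Without the third JTE library 4 of the 9 rose, all 5 mesothelial markers fell and 2 of 3 tested liver markers fell with JTE. Against wt, control explants had 4 of 5 mesothelial and all 4 erythroid markers lower and 3 of 4 leukocyte and 5 of 9 epithelial markers higher. The mesothelial Msln, at 2 to 28 reads per library, was higher (1.43 ± 0.39, adjusted p = 0.00436), and the epithelial Nkx6-1 was lower (-0.29 ± 0.07, adjusted p = 0.00175). All 4 erythroid markers were higher in JTE + CTGF than in JTE, with sums of 522 to 1023 against 87.8 to 179. Of 4 liver markers 3 were tested, and all 3 fell with JTE. The liver sums were 766 to 1510 in wt, 517 to 686 in null, 486 to 596 in control and 114 to 125 in JTE, while 1 of the JTE + CTGF libraries had 1071 against 105 and 118 in the others. Of 4 gut markers, the defining Cdx1 and Cdx2 had 0 to 7 reads in every library and were not tested. Vil1 had 142 to 175 normalised reads in wt, 81.6 to 91.4 in null, 307 to 358 in control, 43.7 to 75.6 in JTE and 35.5 to 48.0 in JTE + CTGF. It fell in null (-0.83 ± 0.15, adjusted p = 0.000638), with JTE (-2.54 ± 0.15, adjusted p = 1.26e-09) and with JTE + CTGF (-2.94 ± 0.16, adjusted p = 3.29e-10). Vil1 was higher in control than in wt (1.11 ± 0.14, adjusted p = 2.32e-06). Aldh1a1 had the same directions in these comparisons, and so had the epithelial keratins Krt8, Krt18 and Krt19, called in each of them. The other epithelial markers did not all follow, and with JTE + CTGF 5 of the 9 fell and 2 rose. Ptf1a rose with JTE (0.83 ± 0.18, adjusted p = 0.000791) and JTE + CTGF (1.15 ± 0.18, adjusted p = 2.77e-05), and Cpa1 with JTE + CTGF (0.63 ± 0.19, adjusted p = 0.00828). Cdh1 and Nkx6-1 were not called with either treatment, and Pdx1 was not called in null or between control and wt. Sox2, at 4 to 30 reads, was higher with JTE (1.21 ± 0.46, adjusted p = 0.0359), a call lost without the third JTE library, and with JTE + CTGF (1.34 ± 0.46, adjusted p = 0.0191). Neural crest and Schwann markers were not called in null, and 1 of 5 rose and 1 fell with JTE. The part of these shifts in the results above was not tested.

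Genes with the most similar course over the 15 libraries were looked up for each of the 8 tested genes among protein-coding genes of at least 100 mean normalised reads, by Pearson's r of log2 CPM. Since the libraries fall into fresh and cultured tissue, r is high for many genes and is given only as a description. Nearest to Aldh1a1 were Abcb9, Itgb4 and Sytl4 (r = 0.982, 0.979 and 0.974), and nearest to Aldh1a2 were Mybl2, Hirip3 and Cav1 (0.99, 0.99 and 0.989). Crabp1 ran with Gm10131, Scube3 and Hs6st2 (0.989, 0.988 and 0.986) and Crabp2 with Ephb3, Msi1 and the embryonic globin Hbb-y (0.983, 0.975 and 0.971). For Cyp26b1 they were Set, Ephb2 and Scube1 (0.963, 0.962 and 0.957), for Rarb Gnpda1, Mks1 and Col8a2 (0.97, 0.967 and 0.965) and for Stra6 Sept11, Ccdc8 and Mum1l1 (0.981, 0.98 and 0.978). Aldh1a3, with few reads, had no gene above 0.821, with Pradc1, Tmem258 and Slc35g1 at 0.821, 0.817 and 0.799. Among the 8 tested genes themselves, Aldh1a2 and Crabp1 (r = 0.956), Crabp1 and Stra6 (0.936) and Crabp2 and Rarb (0.927) ran most alike, and Aldh1a1 ran against Rarb (-0.912) and Crabp2 (-0.901).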

How the data were processed

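Strand-specific libraries of poly(A) RNA were made from embryonic mouse pancreas, and the authors aligned single-end reads with GSNAP to mm10, using Ensembl splice sites. They counted uniquely aligned reads per Ensembl gene with featureCounts 1.4.6 and deposited raw counts, neither normalised nor pooled. Whether counting used the strand is not given in the sources used here. None of the 9 genes overlaps an exon of another gene in the table.

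Symbols came from GENCODE M21 (24750 of 25292 IDs, 97.9%). Titles gave the group and replicate number of each of the 15 libraries, none of which was left out. Counts were tested in edgeR 4.0.16 (quasi-likelihood F-test, R 4.3.3) after TMM scaling and filterByExpr, in a single fit of all groups with no covariate, and p-values were adjusted by Benjamini-Hochberg over 16245 genes, two-sided, with a call at 0.05. The biological coefficient of variation was 7.3%, and depth, at 11402804 to 13828737 reads per library, limits genes of few reads by counting error. The limit given for a library without reads of a gene covers counting error only, while each SE and SD includes the spread between libraries. The criterion of regulation of the study (adjusted p up to 0.1, a mean above 100 normalised reads in 1 of the groups, and a fold outside 0.6 to 1.6, here without its limit to protein-coding genes) served as a second rule. DESeq2 1.42.0, RLE size factors, no filter, the compared libraries alone, a replicate block and leaving out each library were alternatives. In simulated counts for JTE against control, 200 of 200 changed genes were called and 8 false calls were made among 15932 genes. These are totals, and whether such rates hold for genes of few reads, wide spread or small changes was not tested. Promoter sequences are those of RefSeq on GRCm38.p6. Python 3.11.15, numpy 2.4.6 and matplotlib 3.10.9 were used for annotation and plots.

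The genes, the list of 40 related genes and the marker lists were chosen with earlier results of these data known. Named were all 9 genes, and of the 40 the receptors, Rdh10, Dhrs3 and those called with a log2 change of at least 1 in any of 5 comparisons, of which 1 is not reported here. Rbp4, the partner of Stra6, and Dhrs4, Adh5, Rdh11 and Rdh14 were named after their values were seen. Leaving out each library for the named genes of the 40, and the third JTE library for the marker lists, was added after seeing the data. It was not done for Rdh11, Rdh14 or the JTE changes of Dhrs4 and Adh5. For each tested gene the 3 protein-coding genes of highest correlation were named. Nothing in these labels gives a sequencing date or batch.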

Additional observations from a re-analysis of the deposited data

Results flagged for a closer look

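For 3 genes the response to JTE differed from the response in libraries labelled S1pr2 null by a test of the difference itself, the interaction in the edgeR fit. Stra6 gave -1.60 (adjusted p = 1.28e-06), Crabp1 -1.03 (adjusted p = 0.000364) and Rarb 0.62 (adjusted p = 0.02). With groups of 3 libraries no single library was tested as an outlier. These 3 calls stand among 42.9% of all tested genes called in the same contrast.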

How the results depend on the processing

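Over the single-gene changes, settings other than leaving out a library gave 235 results of the same direction and side of the threshold, 3 lost calls, 2 gained calls and no reversal. Leaving out a library gave 680 of the same kind, 25 lost, 7 gained and 8 reversed, none of the 8 called. Those 8 lie in the leave-one-out ranges of the interaction of Aldh1a1 (-0.46 without wt 2 to 0.073 without S1pr2 null 2), of Aldh1a3 (-0.20 without JTE 1 to 0.44 without JTE 3, and -0.013 without S1pr2 null 2) and of Crabp2 (-0.54 without control 1 to 0.42 without control 3). The others were JTE + CTGF against JTE for Aldh1a3 (-0.69 without JTE + CTGF 3 to 0.079 without JTE 1) and Rarb (-0.40 without JTE 2 to 0.028 without JTE 3), and JTE + CTGF against control for Cyp26b1 (-0.036 without control 3 to 0.38 without control 1, and -0.00066 without JTE + CTGF 3). For 35 reported changes of other retinoid genes, leaving out each library, chosen after seeing the data, gave 500 results of the same kind, 22 lost and 3 gained calls and no reversal.

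The criterion of regulation was met by 520 genes in null, 1389 with JTE, 2037 with JTE + CTGF, 322 between JTE + CTGF and JTE and 2074 between control and wt, against 4199, 8474, 9926, 4941 and 9389 called by adjusted p alone. Of the 8 tested retinoic acid genes it kept 4 in null, 2 with JTE, 3 with JTE + CTGF and 5 between control and wt. It kept 0 between JTE + CTGF and JTE, where edgeR and DESeq2 each called 4 by adjusted p and 4 had an unadjusted p below 0.05. A fit of only the libraries compared called 2 there. Leaving out a library gave 1 to 5 there, with 1 without JTE + CTGF 1 and 2 without JTE 1, and 4 to 6 in null, 5 to 7 with JTE and with JTE + CTGF, 7 between control and wt and 2 to 4 for the interaction. Leaving out a library gave 2809 to 4729 called genes in null, 7776 to 8639 with JTE, 9047 to 10383 with JTE + CTGF, 3362 to 4978 between JTE + CTGF and JTE, 8476 to 9708 between control and wt and 6270 to 7172 for the interaction. The cause of these shifts was not tested.

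Replicate numbers were not treated as pairs. Same-numbered libraries did not all deviate together (r from -0.06 to 0.0687 in null against wt and from -0.0473 to 0.248 in JTE against control). Libraries of unlike number gave r from -0.114 to 0.145 and from -0.241 to 0.165 in the same comparisons. These values do not settle whether the numbers pair the libraries. With the replicate block the calls were 6 of 8 in null, 6 with JTE, 6 with JTE + CTGF, 4 between JTE + CTGF and JTE, 7 between control and wt and 3 for the interaction, with 4060, 8338, 9816, 4776, 9256 and 6860 genes called in all. Depth limits Cyp26a1, Aldh1a3 and, in explants, Crabp2, where counts of 3 to 18 reads set the error.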
